A study of Mus musculus with 41 samples.

Results

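Spindle cell tumors were compared with epithelial tumors in mice that had eaten a high-fat diet (HFD) through puberty. The tumors arose from Trp53-null mammary duct fragments of BALB/c donors, transplanted into cleared fat pads of wild-type female BALB/c hosts, so every tumor lacked p53 in its epithelium while its host cells kept the gene. The members were taken from the sample labels, as all tumors of the HFD regimen and of the regimen switched from HFD to low-fat diet (HFD-LFD), which gave 21 of the 41 tumors of the series. Of these, 6 carried the label p53 spindle-like and 15 the label p53 variable, here called spindle and epithelial. HFD mice stayed on HFD until the tumor was taken and contributed 3 spindle and 8 epithelial tumors, and HFD-LFD mice, which changed to LFD at maturity, contributed 3 spindle and 7 epithelial tumors. By the label of onset, 7 epithelial and 1 spindle tumor were early, and 8 and 5 were late. The remaining 20 tumors, 14 epithelial and 6 spindle, came from mice on LFD in puberty and serve only as a comparison at the end.

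Epithelial cells hold to each other through E-cadherin, claudins, desmosomes and tight junctions. In the epithelial-mesenchymal transition (EMT), transcription factors of the Snail, Zeb and Twist families bind E-boxes in the promoters of junction genes and repress them, and cells take on spindle form with vimentin filaments. Tumors in which most cells have this form are rare in the mammary gland and are known for low claudin expression. A whole-tumor RNA sample also holds fibroblasts, vessels, immune cells and fat of the host, and in such a sample fewer cells of a type and less RNA per cell cannot be told apart.

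Each tumor was hybridised with Universal Mouse Reference RNA, a pool from mouse cell lines, on a 2-color array, and every value below is the log2 of the tumor (Cy5) over the reference (Cy3) signal unless another quantity is named. The labels give Cy5 for the tumor, whereas the methods of the study give Cy5 for the reference. The labels were followed, since Y-linked probes, which female tumors lack, had a median below 0 on 18 of the 21 arrays, and since the Cy5 signals varied more between arrays, with a median standard deviation (SD) of 0.741 against 0.47 for Cy3 on the log2 scale. The lowest correlation of ratios between any pair of arrays was 0.542. The spindle arrays were scanned in a session of their own, on another scanner, and lay on 3 slides, while the epithelial arrays lay on 5 other slides, so that in every difference given here histology cannot be told apart from the session. The tumor channel was well above background for 61.49% to 70.94% of gene spots on the spindle arrays, with a median of 67.74%, and for 52.38% to 94.87% on the epithelial arrays, with a median of 70.19%. The HFD epithelial arrays 42L4B and 60L were scanned apart from the other 13 epithelial arrays, and on 60L 22.02% of gene spots were marked as outliers and left missing. Trp53 had ratios between 1.004 and 1.95 in spindle and between -1.27 and 3.74 in epithelial tumors, but whether its probe lies in the deleted part is not known, so it checks nothing.

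The label spindle was first set against markers in each tumor, and it separated the 6 tumors from the others only in part. Epcam, an epithelial adhesion protein, had a ratio of -2.63 in M63L, -1.79 in M129L and 0.64 in M118R, but of 3.22 in M54R, 2.88 in M56LA and 2.44 in M128L, where the 15 epithelial tumors ran from 0.86 to 4.41 with a median of 2.35. M63L, M129L and M118R thus lay below all epithelial tumors for Epcam, and M54R, M56LA and M128L lay among them. Cdh1, which encodes E-cadherin, was at -2.47 in M63L, -2.60 in M129L and -0.74 in M118R, and at 1.78 in M54R, 1.92 in M56LA and 0.97 in M128L, against -0.95 to 2.07 with a median of 0.85 in the epithelial tumors. Vim, the intermediate filament vimentin, was at 1.59 in M63L, 1.43 in M118R and 0.44 in M129L, and at -0.62 in M56LA, -1.85 in M54R and -2.94 in M128L, against -2.46 to -0.09 with a median of -1.71. M128L was lower for Vim than every epithelial tumor measured. The keratin Krt18 of luminal cells was at 2.72 to 3.61 in 4 spindle tumors and below the epithelial range of 0.57 to 3.36 in M118R (0.49) and M129L (-1.13). M63L kept Krt18 at 2.72 although its Epcam, Cdh1 and Cldn3 were below all epithelial tumors. By these markers M54R, M56LA and M128L did not carry the pattern their label names, and each main count below is also given without them, a choice made after seeing the data.

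**Figure D1:**
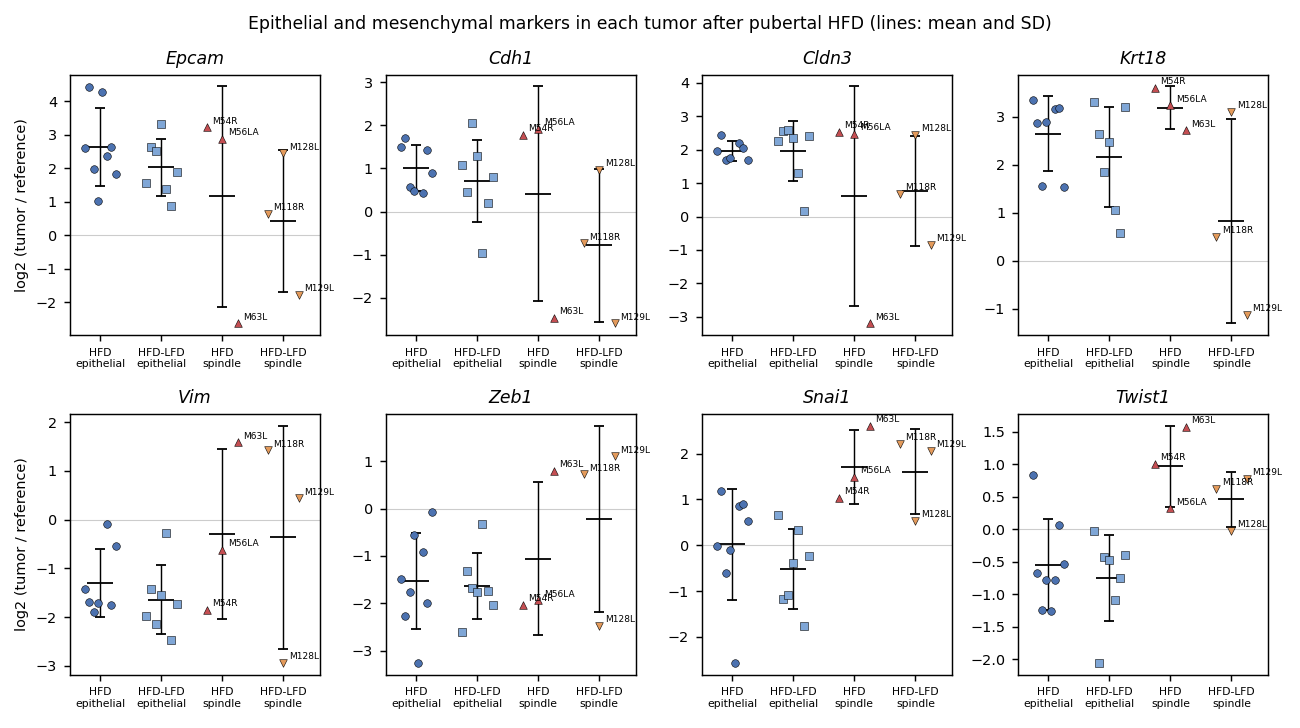
Log2 ratio of tumor over reference for 4 epithelial genes (Epcam, Cdh1, Cldn3, Krt18) and 4 mesenchymal genes (Vim, Zeb1, Snai1, Twist1) in each of the 21 tumors, by regimen and histology, with the mean and SD as lines. M63L and M129L sit below the epithelial tumors for Epcam at -2.63 and -1.79, while M54R, M56LA and M128L sit among them at 2.44 to 3.22.

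Over all genes, 561 of 20795 tested (2.70%) were higher and 606 (2.91%) lower in spindle tumors by limma at a Benjamini-Hochberg adjusted p under 0.05, 1167 in all (5.61%), and 4933 had an unadjusted p under 0.05. The p-values measure the spread between tumors of the 2 labels, and with 6 spindle arrays small differences can be missed. All 6 spindle tumors lay above all epithelial tumors for 78 genes (0.375%) and below them for 62 (0.298%). The counts rested on few arrays. They were 259 higher and 263 lower without M118R, 266 and 285 without M129L, 230 and 303 without M63L, and 326 and 382 without M54R, and they rose to 1001 and 1098 without 42L4B. Without M54R, M56LA and M128L together, 630 genes were higher and 801 lower, and 567 of the 1167 genes called with all tumors were called again. With a random block for the slide there were 206 and 203, and with the scan session as a random block, chosen after seeing the data and resting on the 2 epithelial arrays scanned apart, 1 gene, Slc6a19os, was higher and 0 were lower. The common reference should carry the same RNA on every array, yet the Cy3 channel taken alone differed between the label groups for 4590 genes (22.1%), against 1102 genes (5.30%) for the Cy5 channel alone. Of the genes called on the ratio, the reference channel differed by more than the tumor channel in 245 of the 561 higher (43.7%) and 119 of the 606 lower (19.6%). The session goes with the label groups here too, and its part was not tested.

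The genes with the largest higher ratio, among those where the tumor channel differed more than the reference, were mostly genes of other tissues or of unknown role. Slc6a19os, a transcript opposite the amino acid transporter gene Slc6a19 (probe at chr13:73846708-73846767, mm9), ran from 4.87 to 6.57 in the spindle tumors with a median of 5.38, and from -1.62 to 0.67 in the epithelial tumors with a median of -0.03. The groups did not overlap, and the difference was 5.59 ± 0.28 (SE, n = 6 and 15, limma adjusted p = 2.85e-11), with a difference of 4.09 in the tumor channel and of -1.49 in the reference channel. The probe was well above background on all 6 spindle arrays but on 5 of the 15 epithelial arrays, so the epithelial level, and with it the size of the difference, is uncertain. The gene was as far above the epithelial tumors in M54R, at 5.50, and M128L, at 4.87, as in M63L, at 5.25, and thus did not follow Epcam or Vim. D130043K22Rik was higher by 4.73, 1700022I11Rik by 4.64, and Dnah7a, a dynein heavy chain of cilia, by 4.07 at the probe used, where its other probe had -0.34. For 1700022I11Rik the tumor channel differed by 2.34 and the reference channel by -2.31. The sodium channel Scn1a (4.01), the neuronal transcription factor Pou4f2 (3.29), the stomach hormone gene Gast (3.23), the odorant receptor Olfr187 (3.06), Ccdc170 (3.06), 6720489N17Rik (2.998, and 0.34 at its other probe) and Tcf24 (2.83) were also higher. Each of these probes was well above background on all 6 spindle arrays, but on 1 of the 15 epithelial arrays for Pou4f2, 3 for Scn1a, 6 for Dnah7a, 8 for D130043K22Rik, Ccdc170 and Tcf24, 11 for Prl2c5, 12 for 1700022I11Rik, Gast and Olfr187 and 14 for 6720489N17Rik, so that the lower of these epithelial levels were mostly not measured and the sizes give no firm order. Prl2c5, of the prolactin family, was higher by 4.35 (adjusted p = 0.0205), at 2.49 in M128L, 4.99 in M54R and 7.36 to 8.38 in the other 4, against -0.74 to 6.01 in epithelial tumors. Prl2c5 alone among these 12 genes overlapped between the groups. Members of the Prl2c family are near-identical, so its probe may read several of them.

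Of these 12 genes, 10 could also be tested in the tumors without pubertal HFD, whose 6 spindle arrays were scanned in the same session. In that comparison 8 of the 10 were higher in spindle tumors too, where 3.95% of all genes were. Of all 561 genes higher after pubertal HFD, 38.9% were also higher there, and the 10 had been picked for their size. Slc6a19os was higher there by 5.02, D130043K22Rik by 3.595, 1700022I11Rik by 3.59, Dnah7a by 3.75, Pou4f2 by 3.28, Gast by 3.11, Tcf24 by 2.87 and Ccdc170 by 2.71, with limma adjusted p at or below 0.00263. Prl2c5 had a difference of 1.40 (adjusted p = 0.451) and 6720489N17Rik of 1.48 (adjusted p = 0.0532). Whether histology or the shared session goes with these genes cannot be told apart.

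**Figure D2:**
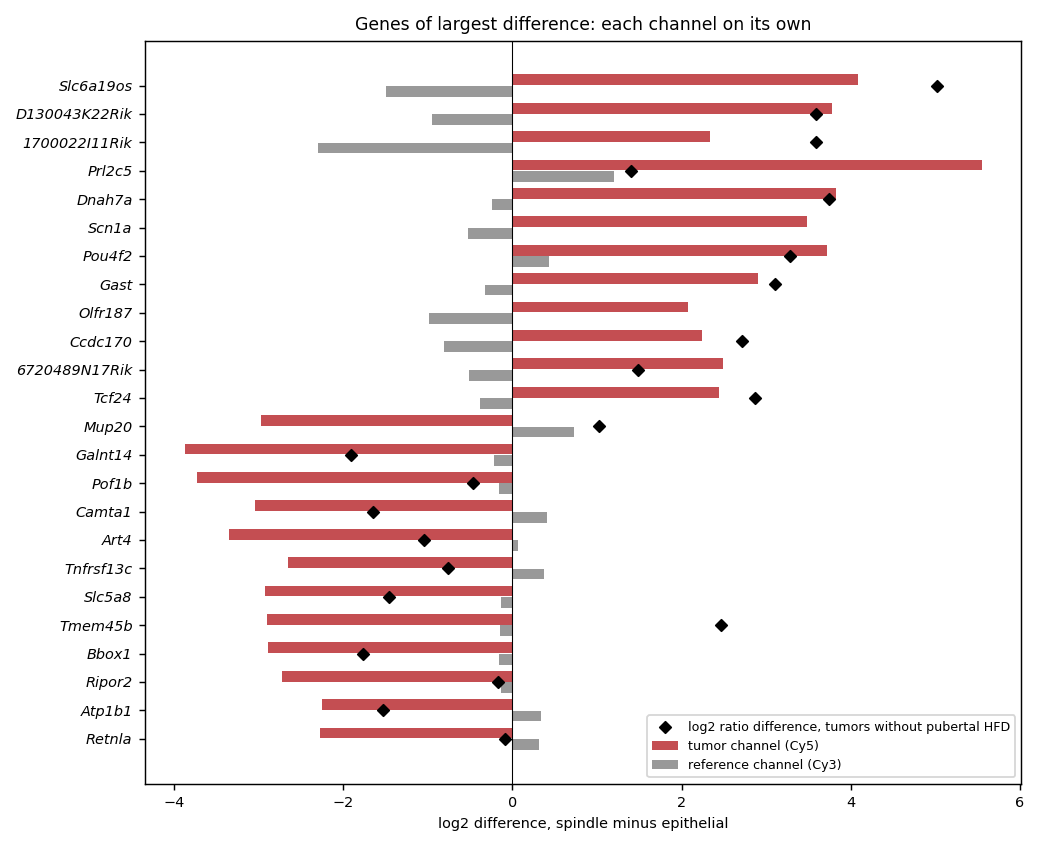
Difference between spindle and epithelial tumors after pubertal HFD in the tumor channel (red bars) and the reference channel (grey bars) for the 12 higher and 12 lower genes named by size, in log2 units, with the ratio difference in tumors without pubertal HFD as diamonds. The reference bar of 1700022I11Rik (-2.31) is as long as its tumor bar (2.34), and the diamond of Tmem45b (2.47) lies on the other side of 0 from its bars.

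The 12 genes with the largest lower ratio in spindle tumors had varied roles. Pof1b, an actin-binding protein of epithelial junctions, ran from -6.83 to -2.17 in spindle tumors with a median of -3.83, and from -2.67 to 1.65 in epithelial tumors with a median of -0.57. M129L and M63L were lowest, at -6.83 and -6.28, and the spindle range held 2 epithelial tumors. The difference was -3.56 ± 0.64 (SE, n = 6 and 15, adjusted p = 0.00232). Tmem45b, a membrane protein, was the single gene of the 12 without overlap, at -5.94 to -5.21 in spindle and -5.04 to 0.20 in epithelial tumors, and it differed by -2.76 ± 0.54 (adjusted p = 0.00521). The sodium-coupled lactate and short-chain fatty acid transporter Slc5a8 (-2.79), the sodium pump subunit Atp1b1 (-2.60), Art4 (-3.42) and Bbox1 (-2.73), an enzyme of carnitine synthesis, were also lower. Galnt14, which starts O-linked glycans, had a difference of -3.66 at the probe used and of -0.80 at its other probe. Mup20 (-3.70), a major urinary protein whose probe may read other members of that family, Camta1 (-3.45), the B-cell receptor gene Tnfrsf13c (-3.02, and -0.98 at its other probe), Ripor2 (-2.60) and Retnla (-2.58), a marker of alternatively activated macrophages, completed the 12. Of the 6 spindle arrays, 1 had a signal well above background for Mup20 and Galnt14, 3 for Camta1 and Tnfrsf13c, 4 for Pof1b, Art4, Slc5a8, Bbox1 and Ripor2, 5 for Tmem45b and 6 for Atp1b1 and Retnla, so that for the dimmest of these the size and the order by size are uncertain. In the block over slides, Galnt14, Pof1b and Tmem45b kept their calls with adjusted p of 0.0294, 0.0104 and 0.0172, and the other 9 lost theirs with adjusted p from 0.0576 to 0.0972. In tumors without pubertal HFD none of the 12 was lower at the threshold, and Tmem45b was higher there by 2.47 (adjusted p = 0.0144).

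Of the 25 genes written for epithelial junctions and their regulators, 2 fell (8%, against 2.91% of all genes) and 23 did not pass the test, and the list had a median difference of -1.23, where all genes had one of -0.03. Dsp, the desmosome protein desmoplakin, was at -4.97 in M129L, -4.50 in M63L, -4.08 in M118R, -1.60 in M54R, -1.49 in M56LA and -0.94 in M128L, against -2.97 to 1.39 in epithelial tumors with a median of -0.84. M129L, M63L and M118R lay below every epithelial tumor and the others among them, with a difference of -2.31 ± 0.64 (SE, adjusted p = 0.0390). Tjp3, the tight junction scaffold ZO-3, was at -2.29 in M63L and -1.99 in M129L and between -0.20 and 0.60 in the other 4, against -0.14 to 2.96, and differed by -1.62 ± 0.47 (adjusted p = 0.0449). Both calls were lost with the slide as a random block, at adjusted p of 0.0987 for Dsp and 0.0940 for Tjp3. Cldn3 differed by -1.27 (adjusted p = 0.212), Cdh1 by -1.04 (0.277), Grhl2, an activator of epithelial genes, by -1.73 (0.0860), and the splicing factor Esrp1 by -1.24 (0.132). The reference channel had a median difference of -0.28 over the list.

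The junction genes split the spindle tumors rather than marking them as a group. In M63L 22 of the 25 genes lay below every epithelial tumor, in M129L 21 and in M118R 9, but in M56LA 1 and in M54R and M128L 0. Over all genes the share below every epithelial tumor was 13.7% in M63L, 10.2% in M129L, 8.5% in M118R, 6.39% in M56LA, 6.62% in M54R and 5.64% in M128L. The median of the list, relative to the mean of the epithelial tumors, was -3.67 in M63L, -2.93 in M129L and -1.28 in M118R, and 0.36, 0.49 and 0.61 in M56LA, M128L and M54R, where epithelial tumors ran from -0.99 to 1.21. For the 15 luminal genes the counts below every epithelial tumor were 9 in M129L, 8 in M63L, 4 in M118R and 0 in the other tumors, and none of the 15 was called, with a median difference of -1.04.

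The promoters of the junction genes were searched for the E-box CACCTG, read CAGGTG on the other strand, which the Snail and Zeb factors bind. Of the 25 junction genes, 16 had promoters in the RefSeq table (GRCm38.p6), and in windows of 300 bases around the start, on either strand and without overlap between the 2 readings, the motif stood in 16 of their 21 promoters (76.2%) and in 12 of the 16 genes (75%). Over the whole table it stood in 6640 of 32851 promoters (20.2%) and 6098 of 27025 genes (22.6%). A match is a description of the letters and shows no binding, and whether the motif goes with the differences in these tumors was not tested. Below are the 150 bases before the start of 4 genes, 5′ to 3′ on the gene's strand, with the motif in capitals. Tjp3 is the called gene with a motif in this stretch, while Dsp, the other called gene, has its 1 motif outside it and is not printed. Cldn7, Crb3 and Rab25, which were not called, show how several copies can lie close to the start. They encode a claudin, a polarity protein and a GTPase of apical recycling.
Tjp3, chr10:81291268-81291417, minus strand: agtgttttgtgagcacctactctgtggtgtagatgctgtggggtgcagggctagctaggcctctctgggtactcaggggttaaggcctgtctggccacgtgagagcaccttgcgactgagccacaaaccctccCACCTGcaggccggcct
Cldn7, chr11:69965271-69965420, plus strand: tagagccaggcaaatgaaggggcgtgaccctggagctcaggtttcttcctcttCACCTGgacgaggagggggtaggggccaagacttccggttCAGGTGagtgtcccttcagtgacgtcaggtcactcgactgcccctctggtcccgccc
Crb3, chr17:57062051-57062200, plus strand: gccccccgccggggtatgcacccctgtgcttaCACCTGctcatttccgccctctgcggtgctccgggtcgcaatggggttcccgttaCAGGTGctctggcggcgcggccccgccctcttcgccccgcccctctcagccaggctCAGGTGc
Rab25, chr3:88548280-88548429, minus strand: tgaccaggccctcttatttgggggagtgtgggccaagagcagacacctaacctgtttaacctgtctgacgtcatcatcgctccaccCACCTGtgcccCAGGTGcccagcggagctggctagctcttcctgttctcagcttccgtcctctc

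The motif began 17 bases before the start of Tjp3, 97 and 57 before that of Cldn7, 63 and 7 before that of Crb3, where a further copy lies upstream, and 64 and 53 before that of Rab25. Of these genes Tjp3 passed the test, while Cldn7 differed by -0.75 (limma adjusted p = 0.451), Crb3 by -1.07 (0.200) and Rab25 by -1.28 (0.157).

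Of the 10 EMT transcription factors, 2 rose (20%, against 2.70% of all genes) and 8 did not pass the test, with a median difference of 0.66. Snai1 was at 2.61 in M63L, 2.21 in M118R, 2.06 in M129L, 1.497 in M56LA, 1.04 in M54R and 0.53 in M128L, against -2.56 to 1.19 in epithelial tumors with a median of -0.11. The 3 tumors of low Epcam were the highest, and 4 epithelial tumors lay within the spindle range. The difference was 1.89 ± 0.46 (SE, adjusted p = 0.0196), lost with the slide as a random block at an adjusted p of 0.0568. Twist1, a basic helix-loop-helix factor, ran from -0.03 in M128L to 1.58 in M63L with a median of 0.70, against -2.06 to 0.84 with a median of -0.68, and differed by 1.35 ± 0.30 (adjusted p = 0.0126), with an adjusted p of 0.0314 with the slide as a random block. Twist2 differed by 1.63 (adjusted p = 0.0886), Zeb1 by 0.94 (0.270), Zeb2 by 0.57 (0.399) and Snai2 by -1.03 (0.389). Zeb1 was at 1.104 in M129L, 0.80 in M63L and 0.72 in M118R, and at -1.94 in M56LA, -2.04 in M54R and -2.48 in M128L, where epithelial tumors ran from -3.26 to -0.07. The 3 tumors with low Epcam were thus above all epithelial tumors for Zeb1, and the other 3 among them. Above every epithelial tumor lay 6 of the 10 factors in M63L, 4 in M118R, 3 in M129L, 1 each in M54R and M56LA and 0 in M128L. Over all genes the share above every epithelial tumor was 11.2% in M63L, 6.94% in M118R and 7.54% in M129L. It was 5.04% in M54R, 3.3% in M56LA and 5.31% in M128L.

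**Figure D3:**
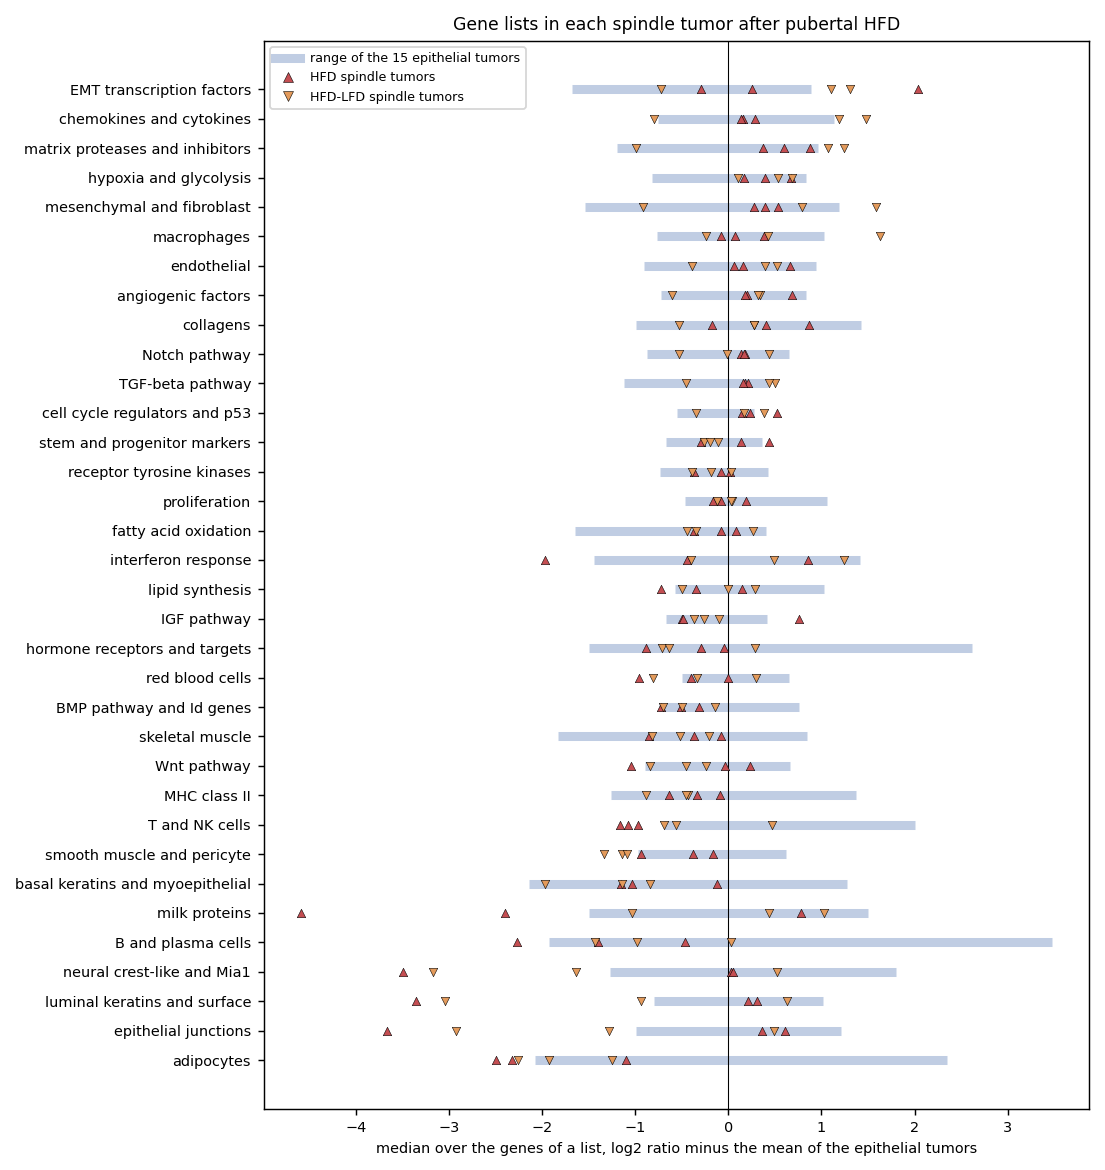
Median over the genes of each list in the 6 spindle tumors (symbols), as log2 ratio minus the mean of the epithelial tumors, with the range of the epithelial tumors as bars. For epithelial junctions M63L (-3.67) and M129L (-2.93) lie far below the bar, while M54R (0.61), M56LA (0.36) and M128L (0.49) lie within it.

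Mesenchymal structural genes varied between the spindle tumors. Of 22 mesenchymal and fibroblast genes 0 rose and 1 fell (4.55%, against 2.91% of all genes), with a median difference of 0.42. Of 18 collagen genes 0 were called, with a median of 0.26. Above every epithelial tumor lay 12 of the 22 mesenchymal genes in M129L, 5 in M118R, 3 in M63L, 1 each in M54R and M56LA and 0 in M128L, where the share over all genes was 7.54% in M129L, 6.94% in M118R and 11.2% in M63L. In M54R, M56LA and M128L that share was 5.04%, 3.3% and 5.31%. Below every epithelial tumor lay 9 of them in M128L, 4 each in M129L and M63L, 2 in M56LA, 1 in M118R and 0 in M54R. Of all genes, 5.64% lay below in M128L, 10.2% in M129L, 13.7% in M63L, 6.39% in M56LA, 8.5% in M118R and 6.62% in M54R. Over the same fit at an unadjusted p under 0.05, 4933 of all genes passed. Vim differed by 1.15 (adjusted p = 0.183), the cadherin Cdh2 by 0.41 (0.726), fibronectin Fn1 by 0.92 (0.371), Col1a1 by 0.37 (0.645) and Col1a2 by 0.22 (0.775). The gene that fell was Fap, a protease of activated fibroblasts, at -2.71 to -1.47 in spindle and -2.02 to -0.85 in epithelial tumors, with a difference of -0.76 ± 0.19 (adjusted p = 0.0237) that was lost with the slide as a random block (0.0585). Of 12 smooth muscle and pericyte genes 1 fell (8.33%, against 2.91% of all genes), the light chain Myl9, by 1.45 (adjusted p = 0.0438), also lost with that block (0.107). The list had a median of -0.80.

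Among genes of progenitors, growth factors and matrix enzymes, a few passed the test. Nes, which encodes the intermediate filament nestin, was at 1.37 in M129L, 0.98 in M54R, 0.21 in M118R, 0.10 in M63L, 0.08 in M128L and -0.50 in M56LA, against -3.03 to 0.08 in epithelial tumors with a median of -1.42. The tumors with and without low Epcam were mixed in this order, and 2 epithelial tumors lay within the spindle range. Nes was higher by 1.81 ± 0.41 (SE, n = 6 and 14, adjusted p = 0.0144), 1 of 11 stem and progenitor genes called (9.09%, against 2.70% of all genes), and kept its call with the slide as a random block (0.0486). Timp3, an inhibitor of matrix metalloproteases, ran from -2.72 to -0.27 against -1.39 to 1.41 and differed by -1.68 ± 0.40 (adjusted p = 0.0183, and 0.0576 with the block). Timp3 was the 1 of 17 matrix protease genes called (5.88%, where 2.91% of all genes were lower), and Mmp3 differed by 1.04 (0.345). Of 14 TGF-beta pathway genes 1 rose (7.14%, against 2.70%), the ligand Tgfb1 by 1.04 ± 0.21 (adjusted p = 0.00726), with ratios of 1.03 to 2.61 against -0.41 to 1.08. For Tgfb1 the tumor channel differed by -0.04 and the reference channel by -1.08, so that the difference in ratio lay in the reference signal. The same held for Pfkl, the liver phosphofructokinase, which was higher by 0.94 with -0.01 in the tumor and -0.95 in the reference channel. Pfkl was the 1 gene called of 14 in hypoxia and glycolysis (7.14%, where 2.70% of all genes were higher). Of 19 Wnt pathway genes 2 fell, where 2.91% of all genes did, the coreceptor Lrp6 by 1.18, with -0.01 at its other probe, and the receptor Fzd7 by 1.101, with -0.42 at its other probe, and both calls were lost with the block (0.0562 and 0.106).

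Few genes of vessels and immune cells passed the test. Of 12 endothelial genes 1 had a higher ratio (8.33%, against 2.70% of all genes), the receptor Tie1, by 0.98 ± 0.24 (adjusted p = 0.0200, and 0.0569 with the slide block). Tie1 had 0.31 in the tumor and -0.66 in the reference channel, and the list had a median of 0.28. Of 12 angiogenic factors 1 rose (8.33%, against 2.70%), the lymphatic growth factor Vegfc, by 1.35 ± 0.39 (0.0443, and 0.0998 with the block). Vegfc was at 2.09 in M118R, 2.06 in M129L and 1.57 in M63L, the tumors of low Epcam, and at 1.19, 0.10 and -0.41 in M56LA, M54R and M128L, against -1.31 to 1.06. Of 17 macrophage genes 1 rose (5.88%, against 2.70%), the scavenger receptor Cd163, at 0.85 to 1.90 with a median of 1.49 against -0.81 to 1.32 with a median of 0.03. Cd163 differed by 1.46 ± 0.27 (SE, adjusted p = 0.00309) and by 1.44 with the block (0.0102), but by 0.79 in the deposited matrix (0.104), and its probe was well above background on 7 of the 15 epithelial arrays. Adgre1, which encodes F4/80, differed by 0.59 (0.255), with 0.09 at its other probe, Cd68 by 0.06 (0.917), with 0.82 at its other probe, and Csf1r by 0.13 (0.850), with 1.01 and 0.80 at its other probes. In M129L 10 of the 17 macrophage genes lay above every epithelial tumor, in M118R and M63L 3 each, in M56LA 1 and in M54R and M128L 0. Of all genes, 7.54% lay above in M129L, 6.94% in M118R, 11.2% in M63L, 3.3% in M56LA, 5.04% in M54R and 5.31% in M128L. The T and NK cell list of 14 genes had a median of -0.69. In it 1 gene fell (7.14%, against 2.91% of all genes), the integrin Itgae, by 1.25 (adjusted p = 0.0454, and 0.110 with the block). Itgae was well above background on 2 of the 6 spindle arrays. The 6 tested B and plasma cell genes had a median of -0.99 with 0 called.

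**Figure D4:**
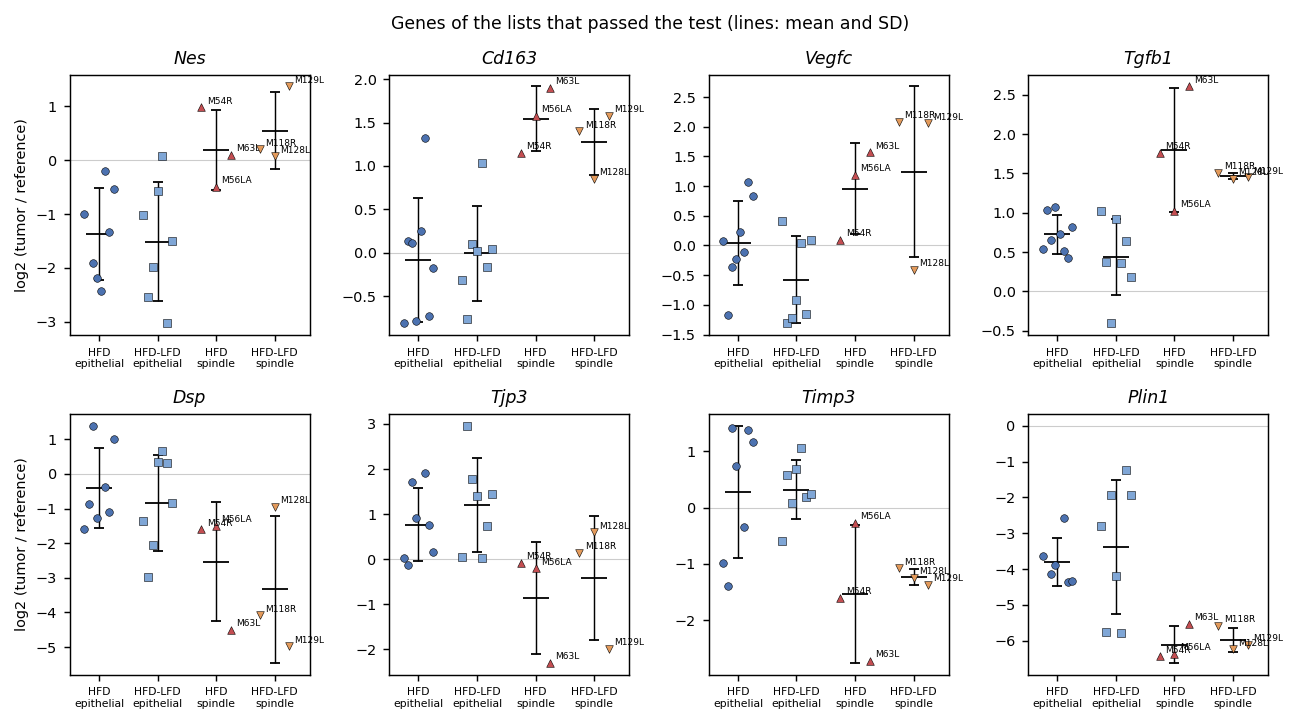
Log2 ratio of tumor over reference for 8 genes that passed the test, in each of the 21 tumors by regimen and histology, with the mean and SD as lines. Cd163 and Tgfb1 have higher ratios in all 6 spindle tumors than the epithelial medians of 0.03 and 0.64, while Dsp is below the epithelial tumors in M129L, M63L and M118R. The Tgfb1 difference lay in the reference channel (-1.08), with -0.04 in the tumor channel.

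Adipocyte genes were the list with the largest share of calls. Of 9 tested, 4 fell (44.4%, against 2.91% of all genes) and 0 rose, with a median difference of -1.92 and 0.13 in the reference channel. Plin1, the perilipin of lipid droplets, was between -6.43 and -5.52 in the 6 spindle tumors with a median of -6.18, and between -5.77 and -1.24 in the epithelial tumors with a median of -3.88. The spindle range held 2 epithelial tumors, and the difference was -2.46 ± 0.56 (SE, n = 6 and 13, adjusted p = 0.0156). Cidec, a lipid droplet protein, differed by -2.43 (0.0277), with -1.07 at its other probe, the hormone adiponectin, Adipoq, by -1.98 (0.0426) and the lipase Lpl by -1.83 (0.0300), while Fabp4 differed by -1.16 (0.221) and Pparg by -0.77 (0.131). All 6 spindle tumors had low values, M54R, M56LA and M128L included, with list medians from -2.49 to -1.09 where epithelial tumors ran from -2.08 to 2.34. With the slide as a random block Plin1 stayed called (0.0497), and Cidec (0.0755) and Adipoq (0.105) did not. In the fit of all 41 tumors, and without M54R, M56LA and M128L, limma called 0 of the 9 genes, with list medians of -1.92 and -1.69 and an adjusted p for Plin1 of 0.0516 and 0.101. Of the 12 skeletal muscle genes, which mark tissue around the gland, 2 had a lower ratio (16.7%, against 2.91%), Pvalb by -1.06 and Myl1 by -0.85, with a list median of -0.37. At their other probes Pvalb had -0.60 and Myl1 0.01, Myl1 had -0.33 in the tumor and 0.52 in the reference channel, and both calls were lost with the slide block (0.0743 and 0.0870). The part of surrounding fat or muscle in the other differences was not tested.

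In milk proteins and the Mia-related list, no gene passed the test but single tumors stood apart. Csn2, beta-casein, was at -3.90 in M54R and -2.64 in M63L, and at 3.85 to 8.42 in the other 4 spindle tumors, against 0.56 to 8.65 in epithelial tumors. M54R and M63L, both from HFD mice, lay below every epithelial tumor, and the gene differed by -2.32 ± 1.49 (SE, adjusted p = 0.357). Mia, a secreted protein known from melanoma cells, was at -3.15 in M63L, -1.92 in M129L and -1.75 in M118R, and at 1.71 to 2.67 in the other 3, against -0.19 to 4.21, and differed by -2.16 ± 0.85 (adjusted p = 0.128). The same 3 tumors were low for Epcam and Mia. Proliferation genes, 19 tested and 0 called, had a median of -0.06, with Mki67 at -0.24 (0.462) and Pcna at -0.33 (0.224).

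Within each regimen fewer genes passed. In HFD mice, 3 spindle against 8 epithelial tumors, 62 genes were higher and 24 lower (86 of 20776, 0.414%), and in HFD-LFD mice, 3 against 7, 92 were higher and 82 lower (174, 0.838%). By a limma test of the difference itself, the spindle effect differed between the regimens for 0 genes, and 693 had an unadjusted p under 0.05. Slc6a19os was higher by 6.18 in HFD mice and by 4.96 in HFD-LFD mice. Snai1 was higher by 1.69 in HFD and 2.12 in HFD-LFD mice and Twist1 by 1.52 and 1.20, none past the threshold within a regimen (limma adjusted p from 0.117 to 0.326). The milk protein list had medians of -2.10 in HFD and 0.51 in HFD-LFD mice, and the T and NK cell list of -1.30 and -0.08. Single tumors decided these counts. In HFD mice 37 genes passed without M54R, 43 without M63L, 50 without M56LA and 152 without 42L4B, and in HFD-LFD mice 19 without M129L, 24 without M118R and 309 without M128L. Leaving out 42L4B, 60L or 1 of 6 HFD-LFD epithelial tumors gave 61 to 348 genes in HFD-LFD mice, and without M128L the difference between regimens was called for 5 genes. With the slide as a random block 46 and 22 genes passed within HFD and HFD-LFD.

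The comparison without pubertal HFD was made in a fit of all 41 tumors, whose spindle arrays also shared the session. There 824 genes (3.95%) were higher and 1324 (6.34%) lower in spindle tumors, and the same fit gave 886 higher and 959 lower after pubertal HFD. Of the 561 genes higher after pubertal HFD in the fit of 21 tumors, 218 (38.9%, and 26.5% of the 824) were also higher without it, and of the 606 lower, 199 (32.8%, and 15% of the 1324) were also lower. The list medians are given side by side, with no test of their difference. Those without pubertal HFD come from the fit of 41 tumors and those after it from the fit of 21 tumors. The counts of list genes called below are those without pubertal HFD, and no count after it from the same fit stands beside them. For single members, the limma test of the difference did not call Col1a1 (adjusted p = 0.287), Col1a2 (0.178), Adipoq (0.234), Plin1 (0.250), Krt5 (0.243) or Krt14 (0.211). Vim of the mesenchymal list (0.972) and Pecam1 of the endothelial list (0.183) were not called either. Fap, also of the mesenchymal list, was called, with a difference of -1.71 (0.0441). Collagens had a median difference of 1.27 without pubertal HFD, with 10 of 18 called, against 0.26 after it, mesenchymal and fibroblast genes 1.16 with 10 of 22 called against 0.42, and endothelial genes 1.12 with 7 of 12 called against 0.28. Adipocyte genes had a median of 1.20 without it against -1.92 after it, and basal keratins and myoepithelial genes 0.79 against -0.93. Junction genes had -0.36 against -1.23.

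The test of the difference itself found 26 of 20885 genes (0.124%), 4 with a higher and 22 with a lower spindle effect after pubertal HFD, and 2558 had an unadjusted p under 0.05. Tmem45b had the largest, -5.23 ± 0.93 (SE, limma adjusted p = 0.0126), with spindle tumors at -5.94 to -5.21 after pubertal HFD and at -5.63 to 2.55 without it. The lipid receptor S1pr5 differed by -3.84 (0.0459), and the serine protease inhibitor Serpina3i by -3.56 (0.0441). S1pr5 had no value in the main comparison and was tested only in the fit that included tumors without pubertal HFD. In that fit its spindle tumors lay at -5.065 to -4.302 after pubertal HFD and at -3.389 to 1.149 without it. Nes had the effect 1.81 after pubertal HFD and -0.60 without it, a difference of 2.42 ± 0.52 (0.0441), with spindle tumors at -0.50 to 1.37 after it and at -2.79 to -0.86 without it. Mnat1, a subunit of the kinase that activates cyclin-dependent kinases, differed by 1.09 (0.0441) and 2410004B18Rik by 0.84 (0.0441). Matrix and stromal genes stood among the other lower effects, chosen here after their values were seen: Fap (-1.71), Dpt (-2.62), Mfap4 (-2.31), Mfap2 (-1.67), Fbln1 (-1.91), Itga11 (-2.88) and Serpinf1 (-2.46). Spindle tumors lay at -4.05 to -2.43 for Dpt, dermatopontin, after pubertal HFD and at -3.14 to 2.11 without it, so that the wider spread was in the tumors without pubertal HFD. With the slide as a random block 5 genes passed, Tmem45b among them (0.0271), and Nes did not (0.0671). The count was 3 without M63L, 7 without M128L, 8 without M118R or M129L, 11 without M56LA, 46 without 42L4B and 41 without 60L, and 5 to 17 on leaving out 1 of 7 other epithelial tumors. Without M54R, M56LA and M128L 144 genes passed.

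**Figure D5:**
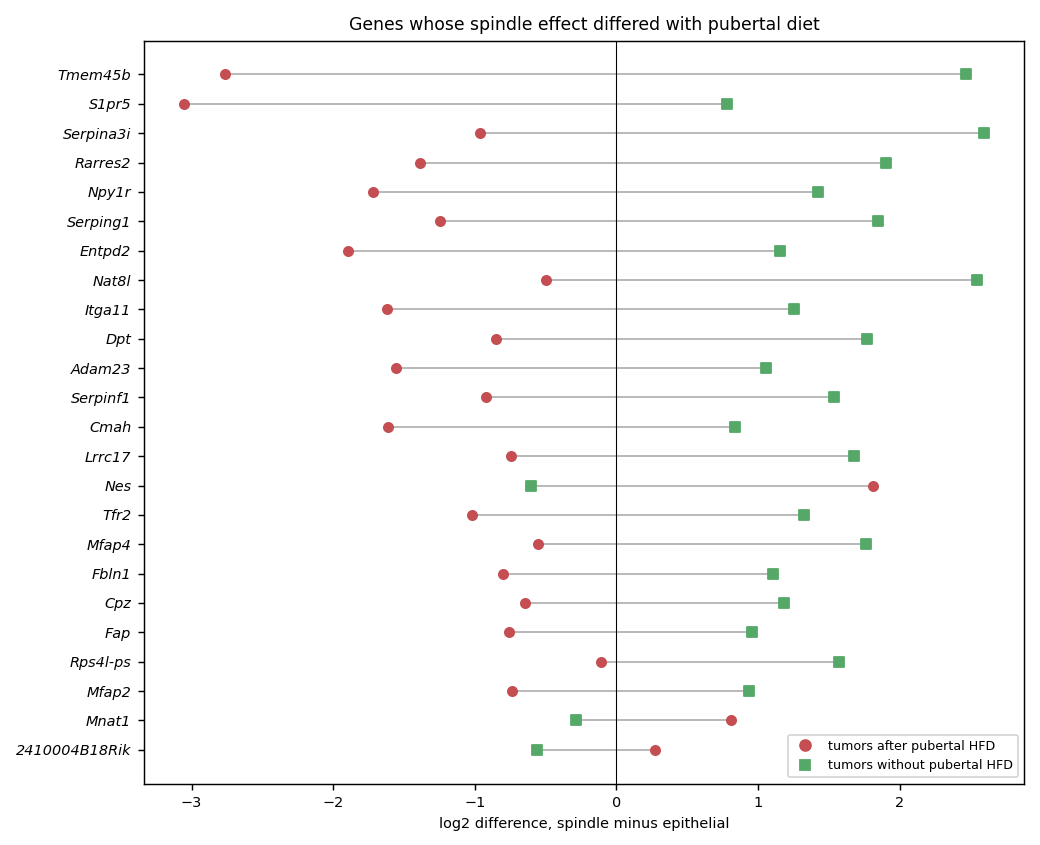
Log2 difference between spindle and epithelial tumors after pubertal HFD (red) and without it (green) for all genes with a symbol in the RefSeq gene table whose difference itself passed the test. Tmem45b goes from -2.76 after pubertal HFD to 2.47 without it, and Nes from 1.81 to -0.60.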

How the data were processed

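RNA of 41 tumors was measured on 2-color Agilent arrays, 1 array per tumor, and 21 were used in the main comparison. The authors deposited the scanner tables of the arrays, made with Agilent Feature Extraction (8.5.1.1 per the labels, 11.0.1.1 for epithelial and 10.5.1.1 for spindle arrays per the file headers), with the intensity of each spot background-subtracted and dye-normalized within the array. They also deposited a matrix of normalized log2 ratios, used as an alternative. SAM, which the authors ran, was not used. The p53 variable label was read as epithelial, since the study compares spindle cell with epithelial tumors, although its methods do not use that label.

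Here log2 of the processed red over green intensity was taken for 43020 gene spots of 39429 probes, with outlier spots missing (2.16% of values) and spots of a probe averaged. Probes were kept (27164) where both channels exceeded 10 on 80% of arrays, each gene by its brightest probe. Of 20799 genes 20795 were tested, and 16862 had a symbol in the RefSeq gene table, matched by symbol, synonym or accession and used for names only. Probe positions are those of the array design (mm9). Groups were compared by lmFit and eBayes of limma 3.58.1 in R 4.3.3, with Benjamini-Hochberg adjustment at 0.05. Within-regimen effects were fitted in the 21 tumors as 4 groups, and the comparison with pubertal LFD in all 41. A fold reads as 2 to the power of the log2 difference.

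Named genes are the 12 higher and 12 lower called genes of largest difference with a symbol, values on at least 5 spindle and 12 epithelial arrays, a probe well above background in most arrays of the higher group and a smaller difference in the reference than in the tumor channel. They also include the first 2 genes and up to 3 called genes of each list, up to 3 called genes per direction of each interaction, and Trp53. Dsc3 and Tff1, which this rule names, stand in the closing section. Members and lists were chosen with earlier results of these data known. Alternatives changed background correction, normalization, filter, probe choice, covariates, block, threshold and samples. In 5 simulated draws of the main comparison over 20795 genes, 41.8% of genes changed by 1 and 84.6% of those changed by 2 on the log2 scale were recovered, with 5.11% false calls. The draws used independent normal noise for each gene, without any effect of slide, session or reference channel. They therefore give no rate of false calls for the measured arrays, where such effects cannot be told apart from histology. Labels do not say whether tumors of 1 number (117L and 117R, 56R and M56LA) come from 1 mouse, and the p-values then measure the spread between samples. For 3 HFD epithelial tumors (40R4A, 57R, 65R) the matrix columns match each other's scanner outputs, which touches onset only, and the labels of the scanner outputs were used. Figures were drawn with matplotlib 3.10.9.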

Additional observations from a re-analysis of the deposited data

Results flagged for a closer look

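Among the 6 spindle tumors a single tumor stood far from the nearest other in 7 of the measures. Krt8 was -1.21 in M129L, with the next tumor at 1.90. Tff1 was -3.93 in M63L, the highest, with the next at -4.56, and Kdr was 0.68 there with the next at 0.11. The list medians, relative to the mean of the epithelial tumors, stood apart for macrophages (1.62 in M129L, next 0.43), for T and NK cells (0.47 in M129L, next -0.56), for the TGF-beta pathway (-0.45 in M128L, next 0.15) and for the IGF pathway (0.76 in M56LA, next -0.10). The share of gene spots marked as outliers was 22.02% on the HFD epithelial array 60L, next 3.5%, and 8.04% on an HFD-LFD epithelial array, next 1%. Of 165 groups of values examined in this way 9 stood apart (5.45%), and chance gives about 1 in 20.

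The effect of spindle histology differed between tumors after and without pubertal HFD, by a test of the difference, for 26 genes. The differences were -5.23 for Tmem45b, -3.84 for S1pr5, -3.56 for Serpina3i, 2.42 for Nes, 1.09 for Mnat1 and 0.84 for 2410004B18Rik. Of these, S1pr5 was not tested in the main comparison, where it failed the filter on signal.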

How the results depend on the processing

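The counts moved with most settings. After pubertal HFD, against 561 higher and 606 lower, there were 1792 and 1373 with no filter on low signals, 901 and 946 with a filter of 6 arrays well above background, 206 and 203 with the slide and 1 and 0 with the scan session as a random block (added after seeing the data), 1670 and 1508 without 42L4B and 60L, 312 and 325 without 1 tumor of each pair that shares a number, 1106 and 1225 at an adjusted p under 0.1, 886 and 959 in a fit of all 41 tumors and 245 and 309 with a difference of at least 1. Under normexp with loess, which changed background correction and normalization together, there were 727 higher and 2080 lower genes, lower genes numbered 1088 in the deposited matrix, and higher genes 988 in late tumors only. For the settings in the same order up to the removal of 42L4B and 60L, genes called within HFD (86) numbered 441, 332, 46, 2 and 354, with 144 at the looser threshold and 162 under normexp with loess. Those within HFD-LFD (174) numbered 933, 570, 22, 1 and 822, with 59 without the tumors of shared number, 580 at the looser threshold, 712 under normexp with loess and 696 in the matrix. The pubertal difference (26) gave 9 with no filter, 5 with the slide block, 84 without 42L4B and 60L, 8 without the tumors of shared number, 93 at the looser threshold, 1402 under normexp with loess, 5 under quantile normalization, 43 in the matrix, 2 with outlier spots kept and 8 without M32L, M86R and M76R. Without M54R, M56LA and M128L, also chosen after seeing the data, 363, 465 and 144 genes passed in these 3 comparisons, the HFD group then holding 1 spindle tumor that was assumed to vary like the others.

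Leaving out 1 tumor at a time gave 230 to 1001 higher and 263 to 1098 lower genes, 37 to 152 within HFD, 19 to 348 within HFD-LFD and 3 to 46 for the pubertal difference. The regimen difference was 0 to 5 genes, 5 without M128L, and 0 under every other setting. The cause of these moves was not tested, apart from settings that remove tumors. Of the named genes called in the main comparison Tff1 changed sign, to 0.10 under quantile normalization. Sign changes of named genes that were not called, some with differences near 0, were not counted. List medians changed sign in 17 settings for stem and progenitor genes, 8 for receptor tyrosine kinases, 7 for interferon response, 4 for cell cycle regulators, 3 for proliferation and 2 for Notch. They did so in 1 setting each for skeletal muscle, red blood cells, TGF-beta, IGF, lipid synthesis and fatty acid oxidation. The medians of macrophages and angiogenic factors went down to 0.02 and 0.006. Slc6a19os was called in all 40 alternatives, and Twist1, Nes, Tgfb1, Pof1b and Tmem45b in all but the session block. No paired analysis was possible because spindle and epithelial tumors have at most 1 number in common. Probes near background set the limit of detection.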

Other observations

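Dsc3, a desmocollin of desmosomes in stratified epithelium, was higher by 3.56 (limma adjusted p = 0.0151), but the value rests on 2 spindle arrays, since its spots on the other 4 were marked as outliers. Tff1, a secreted trefoil peptide, was lower by 0.53 (adjusted p = 0.0390). Krt5 and Krt14, the keratins of basal cells, had differences of -1.86 (0.0844) and -1.86 (0.0881) after pubertal HFD and of 1.26 and 1.26 without it (0.304 and 0.262).

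Of the list genes tested, those of receptor tyrosine kinases (13 genes, median difference -0.05), Notch (11, 0.19), IGF (12, -0.29), BMP and Id genes (11, -0.35), lipid synthesis (15, -0.23), fatty acid oxidation (13, -0.13), interferon response (18, -0.15), MHC class II (7, -0.47), chemokines and cytokines (17, 0.53), red blood cells (4, -0.33), neural crest-like genes (10, -0.99) and cell cycle regulators (13, 0.02) had 0 calls by limma. Of 15 basal keratin and myoepithelial genes 1, Dsc3, was called higher (6.67%, against 2.70% of all genes, median -0.93). Of 8 hormone receptors and targets 1, Tff1, was called lower (12.5%, against 2.91%, median -0.31). In M63L 15 of the 18 interferon response genes lay below every epithelial tumor, where 13.7% of all genes did. In M129L 4 of the 18 lay above every epithelial tumor, where 7.54% of all genes did.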
